A study of Mus musculus with 16 samples.

Results

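The genes described here are 44 genes of G2/M and mitosis, the part of the cell cycle in which a cell that has copied its DNA divides. They were taken by gene symbol from a list of mitosis genes, which was drawn up with earlier results of these data known, out of 49139 genes with a symbol in the deposited counts, and all 44 were found. RNA was sequenced from 16 libraries of sorted mouse tumour cells. The cells were 4T07, a line of mouse mammary carcinoma, implanted into the fat pad of hybrids of Balb/cJ and C57BL/6J mice. Mixed tumours began from 250000 cells, with GFP-transduced and mCherry-transduced 4T07 cells in equal parts. On day 7 or day 15 of growth these mice were given 7000000 PD1-knockout Jedi T cells by tail vein, and harvest followed 7 days after. Jedi T cells carry a receptor for a peptide of GFP, so that they attack GFP cells and not mCherry cells. GFP cells that had survived and mCherry cells were sorted from each of 3 mixed tumours per injection day. The controls were mCherry cells of 4 tumours that held no GFP cells and received no Jedi T cells. No library came from GFP cells of a tumour without Jedi T cells, so the reporter and the T cell attack cannot be told apart in any GFP value. The age and sex of each animal are not used here.

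Mitosis is driven by cyclin B bound to the kinase Cdk1, which is switched on at the end of G2 together with the Plk1 and Aurora kinases. A spindle of microtubules and motor proteins then attaches to the kinetochores of the chromosomes, and a checkpoint holds anaphase back until every chromosome is attached. The anaphase-promoting complex then marks cyclin B for destruction, and the central spindle and a ring of contractile proteins divide the cell. These genes are transcribed mainly late in the cycle, and the level of their RNA in tumour tissue is widely used as a readout of the share of dividing cells.

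Total counts per library ranged from 9412040 to 19970822 on day 7 and from 21183324 to 32808354 in the day 15 and control groups. Each of the 44 genes had at least 104 counts in every library, and all 44 passed the filter on low counts in each comparison. Tumours carry the number of their count column (day 7: 2, 3 and 4; day 15: 1, 2 and 3). Sequencing run 1 held all day 7 libraries and run 2 all others, so that injection day and run cannot be told apart. Of 6 markers of the line, Krt8 lay at 327 to 883 CPM (counts scaled to library size) and Vim, the intermediate filament of mesenchymal cells, at 1790 to 4020 CPM, while Epcam reached at most 2.72 CPM and Krt14 at most 0.358 CPM. Of 5 tested, 2 were lower and 1 was higher in GFP than in mCherry cells on each day. On day 7 Krt18 lay at 88.3 to 127 CPM in GFP and 258 to 449 CPM in mCherry cells. Cdh1 went the other way, at 23.0 to 28.0 CPM in day 7 GFP and 5.88 to 7.11 CPM in day 7 mCherry cells. The GFP library of day 7 tumour 4 stood apart from the other 2 of its group in the genes described here. The day 7 count of genes called and the median over the 44 genes are given with and without it. Day 7 counts and median fold changes by role and by list include it.

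The surviving GFP cells held less RNA of mitosis genes than the mCherry cells of the same tumour on both injection days. On day 7, 38 of the 44 genes were lower in GFP cells at an adjusted p under 0.05 in edgeR's quasi-likelihood test with tumour as a block, and none was higher. Over all 14578 genes tested, 9.33% were lower and 8.89% higher by the same rule. The median log2 fold change of the 44 genes was −0.80, from −1.46 for Nusap1 to −0.21 for Foxm1, beside −0.004 over all genes. On day 15 all 44 were lower, where 10.6% of 14260 genes were lower and 8.94% higher, with a median of −1.02, from −1.34 for Plk1 and Ndc80 to −0.45 for Anln, beside 0.006 over all genes. In bulk samples, fewer dividing cells and less RNA per dividing cell cannot be told apart. Without the block, 20 of the 44 were called on day 7 and 40 on day 15. Without tumour 3, 16 were called on day 7, and without tumour 4 all 44 were, with a median log2 fold change of −1.11. Calls over all genes, in either direction, changed too. On day 7 they were 2656 with block and all tumours, 2159 without the block, 1156 without tumour 3 and 4558 without tumour 4. On day 15 they were 2782 with the block and 2059 without it.

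The groups were also compared library by library. On day 15 every GFP library lay below every mCherry library in all 44 genes, where 18.2% of all genes tested did so. On day 7 this held for 21 of the 44, beside 16.5% of all genes. The summed level of the 44 genes was 1860, 2160 and 3980 CPM in the GFP cells of day 7 tumours 2, 3 and 4 and 4260, 4430 and 4440 CPM in their mCherry cells. By this sum the mCherry cells of the 3 tumours lay close together, and the GFP cells of tumour 4 lay near them. As a whole library, however, the mCherry cells of tumour 4 differed from those of tumours 2 and 3 (chi-square per degree of freedom 92.1 and 88.1). Those of tumours 2 and 3 differed less from each other (10.5). On day 15 the sum was 1640, 1930 and 2310 CPM in GFP cells of tumours 1, 2 and 3 and 3600, 3060 and 4980 CPM in mCherry cells. Controls 1 to 4 held 2820, 2820, 2970 and 3180 CPM, above all day 15 GFP cells, and only control 4 lay above the lowest day 15 mCherry library.

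Markers of other cell types differed between GFP and mCherry cells. The summed level of 11 macrophage markers was 65.1 to 141 CPM in day 7 GFP cells and 484 to 746 CPM in day 7 mCherry cells, and 11 of 11 were lower in GFP cells. Of 8 endothelial markers tested, 8 were lower (summed over 9 markers, 7.03 to 8.53 against 27.5 to 55.7 CPM). On day 15 the macrophage markers summed to 13.7 to 22.3 CPM in GFP cells and 19.9 to 29.5 CPM in mCherry cells, with 5 of 9 tested lower, and the endothelial markers to 13.4 to 16.5 and 16.8 to 39.6 CPM, with 3 of 9 lower. The 6 fibroblast markers summed to 1350 to 1530 CPM in day 15 GFP cells, 876 to 1060 CPM in day 15 mCherry cells and 893 to 1260 CPM in controls, with 2 lower and 1 higher on day 15. Dcn, which encodes the matrix proteoglycan decorin, stood at 692 to 787 CPM in day 15 GFP and 269 to 356 CPM in day 15 mCherry cells. Pi16, another of these markers, went the other way, at 25.9 to 57.1 CPM in day 15 GFP and 78.8 to 120 CPM in day 15 mCherry cells. Most of the sum was Pdgfra and Dcn in every library. On day 7 the fibroblast markers summed to 722 to 781 CPM in GFP and 665 to 796 CPM in mCherry cells. Neutrophil markers summed to 0.941 to 3.47 CPM in day 15 GFP cells and 2.71 to 14.9 CPM in day 15 mCherry cells, with 2 of 2 tested lower. Markers of T and NK cells summed to 11.4 to 23.1 CPM in day 7 GFP, 10.9 to 19.3 CPM in day 7 mCherry and at most 8.08 CPM in all other groups. Most of this sum was 1 gene, Lck, at 8.97 to 16.3 CPM on day 7. Cd3e, part of the T cell receptor complex, reached at most 1.20 CPM. The part of these markers in the results of either day was not tested.

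**Figure D1:**
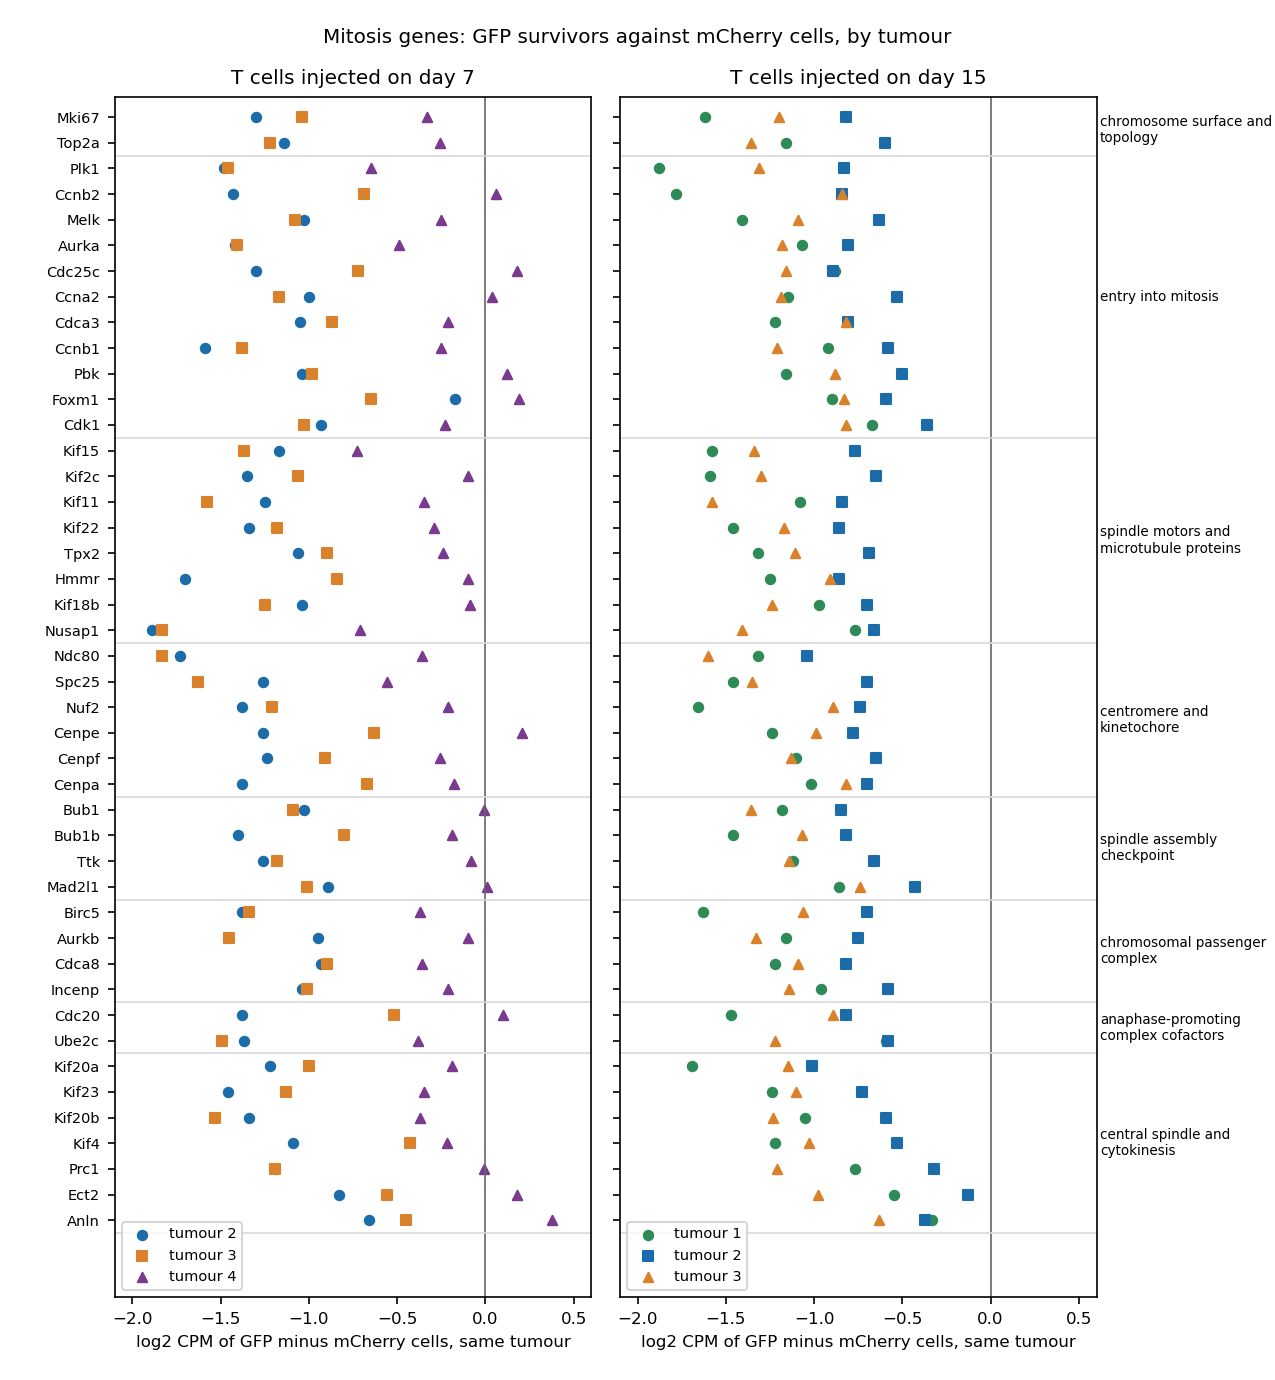
Difference in log2 CPM between GFP and mCherry cells of the same tumour (horizontal axis) for each of the 44 genes, grouped by role, with 1 symbol per tumour and a panel per injection day. All symbols of day 15 lie left of 0, and those of day 7 tumour 4 lie nearest to or right of 0, with a median of −0.21.

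Genes of late G2 and mitosis share a mode of transcription. In resting cells the DREAM complex, built on the MuvB proteins and the pocket proteins p107 and p130, holds them silent, and in G2 MuvB binds B-Myb and FoxM1 instead and switches them on. MuvB contacts DNA at a cell cycle homology region, or CHR, and the factor NF-Y binds CCAAT boxes nearby. The 250 bases before the start of the 36 members with a RefSeq promoter record on GRCm38.p6 were searched on both strands for the CHR, with the letters TTTGAA as the main form and with the letters TTCGAA as a variant, and for the box with the letters CCAAT. On the opposite strand these read as TTCAAA for the main form, as the same letters for the variant, and as ATTGG for the box. A CHR was found in 12 of 36 (33.3%), and in 17.4% of all 27025 promoters. CCAAT was found in 26 (72.2%, against 34.5%), at least 2 copies of it in 20 (55.6%, against 10.5%), and both motifs in 10 (27.8%, against 6.21%). A match describes these letters and is not a binding site shown in these cells. The promoters below are those with both motifs and the smallest day 15 p, for genes that fell together, with CHR and CCAAT letters in capitals. That of Kif22 was left out because 51 of its bases lie in an annotated exon of the gene (GENCODE M21), as do the last 9 bases of the Cdc20 window. The windows are chr2:118597961-118598210 on the plus strand for Bub1b, chr7:135716380-135716629 on the minus strand for Mki67, chr19:37376132-37376381 on the plus strand for Kif11, chr4:118437344-118437593 on the minus strand for Cdc20 and chr11:99024190-99024439 on the minus strand for Top2a.
Bub1b: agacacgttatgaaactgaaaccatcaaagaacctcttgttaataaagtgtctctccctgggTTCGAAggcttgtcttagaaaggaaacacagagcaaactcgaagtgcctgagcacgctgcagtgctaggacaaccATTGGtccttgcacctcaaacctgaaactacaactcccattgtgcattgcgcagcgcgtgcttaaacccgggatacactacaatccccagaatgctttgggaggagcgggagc
Mki67: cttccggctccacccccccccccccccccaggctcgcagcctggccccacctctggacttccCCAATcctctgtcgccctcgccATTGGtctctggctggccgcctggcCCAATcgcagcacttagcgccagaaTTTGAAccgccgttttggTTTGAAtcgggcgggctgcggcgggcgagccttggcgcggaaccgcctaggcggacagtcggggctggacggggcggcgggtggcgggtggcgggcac
Kif11: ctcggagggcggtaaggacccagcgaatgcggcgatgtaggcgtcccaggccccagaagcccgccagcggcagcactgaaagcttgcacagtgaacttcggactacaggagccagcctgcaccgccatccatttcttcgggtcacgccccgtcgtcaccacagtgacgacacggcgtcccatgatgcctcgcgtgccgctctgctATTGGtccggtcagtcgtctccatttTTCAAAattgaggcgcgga
Cdc20: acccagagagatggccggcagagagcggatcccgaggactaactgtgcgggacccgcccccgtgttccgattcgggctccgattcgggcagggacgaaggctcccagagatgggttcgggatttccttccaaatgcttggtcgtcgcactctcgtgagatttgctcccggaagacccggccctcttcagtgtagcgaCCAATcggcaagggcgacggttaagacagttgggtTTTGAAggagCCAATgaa
Top2a: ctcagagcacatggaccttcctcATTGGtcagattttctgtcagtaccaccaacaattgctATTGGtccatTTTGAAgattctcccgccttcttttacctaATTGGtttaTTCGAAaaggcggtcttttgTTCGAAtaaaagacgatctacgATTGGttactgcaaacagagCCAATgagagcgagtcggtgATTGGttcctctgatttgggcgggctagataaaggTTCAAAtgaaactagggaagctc

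In these sequences Kif11 and Cdc20 had a CCAAT box upstream of a CHR that began 19 and 18 bases before the start. Cdc20 held a further CCAAT after it, 8 bases before the RefSeq start and within the annotated exon. Mki67 held 3 CCAAT boxes and, downstream of them, 2 CHR matches at 116 and 98 bases before the start. Top2a held 6 CCAAT and 4 CHR matches, the last CHR 23 bases before the start. Bub1b had its CHR farther out, at 188 bases, with a CCAAT at 113 bases. The 5 genes, which were picked by their day 15 p, had day 15 log2 fold changes of −1.12 (Bub1b), −1.22 (Mki67), −1.18 (Kif11), −1.06 (Cdc20) and −1.05 (Top2a). The other members with both motifs had values of −1.17 (Kif22), −1.16 (Ccnb2), −0.81 (Ube2c), −0.63 (Cdk1) and −0.57 (Ect2).

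Mki67 encodes Ki-67, the protein that coats mitotic chromosomes and is stained to find cycling cells, and Top2a encodes the topoisomerase that untangles sister chromatids. Mki67 stood at 61.8, 70.8 and 176 CPM in the GFP cells of tumours 2, 3 and 4 and at 153, 145 and 222 CPM in their mCherry cells on day 7. GFP cells of tumours 2 and 3 lay below all mCherry cells, but the GFP cells of tumour 4 lay within the mCherry range. The fold change was −0.89 on the log2 scale (SE 0.15, adjusted p = 0.00397). On day 15, GFP cells of tumours 1, 2 and 3 held 132, 172 and 208 CPM of Mki67 and mCherry cells 405, 305 and 479 CPM. The colours did not overlap (log2 fold change −1.22, SE 0.13, adjusted p = 0.000228). Controls 1 to 4 lay at 286, 313, 317 and 319 CPM, above all GFP cells and in part below the lowest mCherry library. For Top2a, the GFP cells of day 7 tumours 2, 3 and 4 held 118, 140 and 342 CPM and the mCherry cells 260, 326 and 409 CPM, with the GFP cells of tumour 4 again among the mCherry values (log2 fold change −0.87, SE 0.16, adjusted p = 0.00561). The day 15 levels of Top2a were 181, 232 and 275 CPM in GFP cells and 407, 351 and 708 CPM in mCherry cells of tumours 1, 2 and 3. The groups did not overlap (log2 fold change −1.05, SE 0.13, adjusted p = 0.000557).

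Of the 44 genes, 11 act at the entry into mitosis. Of these, 9 were lower on day 7 (median −0.71) and 11 on day 15 (median −0.97). Plk1, the Polo kinase that starts spindle assembly and helps to activate Cdk1, changed most among them. For Plk1 on day 7, tumours 2, 3 and 4 gave 25.5, 30.9 and 50.9 CPM in GFP cells, against 71.5, 85.3 and 80 CPM in mCherry cells. The colours did not overlap (log2 fold change −1.20, SE 0.15, adjusted p = 0.000707). Plk1 reached 15.9, 26.4 and 30.6 CPM in GFP and 58.6, 47.1 and 76.1 CPM in mCherry cells of day 15 tumours 1, 2 and 3. Here too GFP cells lay below all mCherry cells (log2 fold change −1.34, SE 0.16, adjusted p = 0.000449). Plk1 shares sequence with Plk-ps1 in the annotation, and its exons overlap those of Gm44985. Aurka, the Aurora A kinase of the spindle poles, was lower on both days as well. In tumours 2, 3 and 4 of day 7, Aurka was at 47.3, 48.8 and 92.3 CPM in GFP cells and at 127, 130 and 130 CPM in mCherry cells. The mCherry cells lay within a narrow range well above all GFP cells (log2 fold change −1.11, SE 0.16, adjusted p = 0.00156). Aurka stood at 21.6, 25.9 and 34.1 CPM in the GFP cells of tumours 1, 2 and 3 and at 45.6, 45.5 and 77.2 CPM in their mCherry cells on day 15. The difference was −1.03 on the log2 scale (SE 0.10, adjusted p = 0.000164).

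Cdk1 and its partner cyclin B1, encoded by Ccnb1, form the kinase that drives mitosis. On day 7, GFP cells of tumours 2, 3 and 4 held 55.8, 69.4 and 123 CPM of Ccnb1 and mCherry cells 168, 180 and 146 CPM. No GFP library reached the mCherry range (log2 fold change −1.07, SE 0.21, adjusted p = 0.00634). The day 15 levels of Ccnb1 were 27.5, 32.4 and 39 CPM in GFP cells and 52.2, 48.6 and 90.4 CPM in mCherry cells of tumours 1, 2 and 3. The difference on day 15 was −0.92 on the log2 scale (SE 0.12, adjusted p = 0.000689). Part of the Ccnb1 sequence also occurs in 4 annotated copies or other genes (Ccnb1-ps, Gm12856, Gm4870 and Gm8416), so its counts are uncertain. For Cdk1 on day 7, tumours 2, 3 and 4 gave 75, 85 and 133 CPM in GFP cells, against 143, 174 and 156 CPM in mCherry cells. The fold change was −0.73 on the log2 scale (SE 0.14, adjusted p = 0.00666). Cdk1 reached 30.9, 36.7 and 46.2 CPM in GFP and 49.4, 47.1 and 81.7 CPM in mCherry cells of day 15 tumours 1, 2 and 3. This was the smallest day 15 change among the entry genes (log2 fold change −0.63, SE 0.11, adjusted p = 0.00288), and GFP and mCherry cells stood closer than for Plk1.

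The entry genes that missed the threshold on day 7 were Foxm1, the forkhead factor that activates G2/M genes, and Cdc25c, the phosphatase that removes inhibitory phosphates from Cdk1. In tumours 2, 3 and 4 of day 7, Foxm1 was at 42.6, 37 and 60 CPM in GFP cells and at 48.1, 58.3 and 52.5 CPM in mCherry cells. The tumour differences had both signs (log2 fold change −0.21, SE 0.15, adjusted p = 0.362). Foxm1 stood at 39.9, 42.1 and 55.7 CPM in the GFP cells of tumours 1, 2 and 3 and at 74.4, 63.3 and 99.3 CPM in their mCherry cells on day 15. On day 15 Foxm1 was lower in every tumour (log2 fold change −0.78, SE 0.09, adjusted p = 0.00043). Some Foxm1 exon sequence overlaps that of Tex52 and Gm44596. On day 7, GFP cells of tumours 2, 3 and 4 held 20.4, 25.8 and 38.8 CPM of Cdc25c and mCherry cells 50.4, 42.7 and 34.3 CPM. Tumour 4 went the other way from tumours 2 and 3 (log2 fold change −0.61, SE 0.22, adjusted p = 0.0829). The day 15 levels of Cdc25c were 11.6, 12.4 and 16.7 CPM in GFP cells and 21.5, 22.9 and 37.5 CPM in mCherry cells of tumours 1, 2 and 3. The day 15 difference was −0.99 on the log2 scale (SE 0.12, adjusted p = 0.000416). The other entry genes lower on both days were Ccna2 (cyclin A2), Ccnb2 (cyclin B2), the kinases Melk and Pbk, and Cdca3, with day 7 log2 fold changes of −0.71, −0.69, −0.78, −0.63 and −0.71 and day 15 values of −0.97, −1.16, −1.06, −0.86 and −0.96. Among these, the day 7 difference of Ccnb2 passed most narrowly (adjusted p = 0.047).

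All 8 spindle genes were lower on both days, with medians of −0.90 on day 7 and −1.11 on day 15. Nusap1, which bundles spindle microtubules, had the largest day 7 fall of all 44 genes. For Nusap1 on day 7, tumours 2, 3 and 4 gave 12.7, 16.6 and 33.5 CPM in GFP cells, against 47.1, 59.2 and 54.8 CPM in mCherry cells. Even tumour 4 showed a clear difference, and the colours did not overlap (log2 fold change −1.46, SE 0.21, adjusted p = 0.00121). Exons of Nusap1 overlap those of Oip5, which was lower on day 7 too (log2 fold change −0.93). Kif15, a motor that helps Kif11 to hold the spindle poles apart, had the smallest day 7 p of this role. Kif15 reached 13.7, 12.8 and 27.9 CPM in GFP and 30.8, 33.1 and 46.3 CPM in mCherry cells of day 7 tumours 2, 3 and 4. GFP cells of tumour 4 lay close below the lowest mCherry value (log2 fold change −1.09, SE 0.15, adjusted p = 0.00103). On day 15 the smallest p in this role were those of Kif22, a motor that pushes chromosome arms outward, and Hmmr, a microtubule-binding protein of the poles. In tumours 1, 2 and 3 of day 15, Kif22 was at 17.6, 21.1 and 27.5 CPM in GFP cells and at 48.7, 38.4 and 62.1 CPM in mCherry cells. The groups were apart (log2 fold change −1.17, SE 0.12, adjusted p = 0.000185). Hmmr stood at 20.8, 25.2 and 33.6 CPM in the GFP cells of tumours 1, 2 and 3 and at 49.6, 45.8 and 63.3 CPM in their mCherry cells on day 15. They were apart for Hmmr too (log2 fold change −1.01, SE 0.10, adjusted p = 0.000193). The remaining members were Kif11, Kif2c, Kif18b and Tpx2, the targeting factor of Aurora A, with day 7 values of −1.05, −0.83, −0.78 and −0.73 and day 15 values of −1.18, −1.19, −0.99 and −1.05.

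Of 6 centromere and kinetochore genes, 5 were lower on day 7 (median −0.86) and 6 on day 15 (median −1.06). Ndc80, Nuf2 and Spc25 encode subunits of the complex that binds microtubules at the kinetochore. On day 7, GFP cells of tumours 2, 3 and 4 held 12.2, 11.9 and 33.5 CPM of Ndc80 and mCherry cells 41, 42.6 and 43.1 CPM. The GFP cells of tumours 2 and 3 lay far below their mCherry cells and those of tumour 4 only a little below (log2 fold change −1.29, SE 0.25, adjusted p = 0.00615). The day 15 levels of Ndc80 were 12.7, 12.2 and 15.6 CPM in GFP cells and 31.9, 25.2 and 47.5 CPM in mCherry cells of tumours 1, 2 and 3. With Plk1 this was the largest day 15 fall (log2 fold change −1.34, SE 0.13, adjusted p = 0.000142). For Spc25 on day 7, tumours 2, 3 and 4 gave 30.9, 30.9 and 50.5 CPM in GFP cells, against 74.2, 96 and 74.3 CPM in mCherry cells. The colours did not overlap (log2 fold change −1.15, SE 0.17, adjusted p = 0.00163), nor on day 15 (log2 fold change −1.19, SE 0.15, adjusted p = 0.000689). Ndc80 shares sequence with 2700099C18Rik in the annotation. Cenpe, a kinetochore motor that carries chromosomes to the spindle equator, missed the threshold on day 7. Cenpe reached 33.8, 47.3 and 104 CPM in GFP and 81, 73 and 89.9 CPM in mCherry cells of day 7 tumours 2, 3 and 4. The GFP cells of tumour 4 had the highest value of the 6 libraries (log2 fold change −0.55, SE 0.21, adjusted p = 0.0991). In tumours 1, 2 and 3 of day 15, Cenpe was at 57.4, 65.5 and 82.3 CPM in GFP cells and at 136, 113 and 164 CPM in mCherry cells. On day 15 the groups were apart (log2 fold change −1.02, SE 0.10, adjusted p = 0.00016). Nuf2, Cenpf and Cenpa, the centromeric histone, were lower on both days, by −0.92, −0.80 and −0.74 on day 7 and −1.10, −0.97 and −0.86 on day 15 on the log2 scale.

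All 4 genes of the spindle assembly checkpoint were lower on both days, with medians of −0.75 and −1.05. Bub1b encodes BubR1, which holds back the anaphase-promoting complex, and Ttk encodes Mps1, the kinase that starts the checkpoint signal. Bub1b stood at 31.3, 41.7 and 66.9 CPM in the GFP cells of tumours 2, 3 and 4 and at 82.6, 72.9 and 76.5 CPM in their mCherry cells on day 7. No GFP value reached the mCherry range (log2 fold change −0.79, SE 0.18, adjusted p = 0.0135). On day 15, GFP cells of tumours 1, 2 and 3 held 33.5, 46.8 and 49.5 CPM of Bub1b and mCherry cells 92.5, 82.6 and 104 CPM. The difference was −1.12 on the log2 scale (SE 0.12, adjusted p = 0.000221). The day 7 levels of Ttk were 15.7, 17 and 32.4 CPM in GFP cells and 37.8, 38.6 and 34.3 CPM in mCherry cells of tumours 2, 3 and 4. GFP cells of tumour 4 lay just below the lowest mCherry value (log2 fold change −0.83, SE 0.21, adjusted p = 0.0206), whereas the day 15 value was −0.99 on the log2 scale (SE 0.12, adjusted p = 0.000417). Bub1, the kinase that recruits other checkpoint proteins to kinetochores, had the smallest day 15 p in this role. For Bub1 on day 7, tumours 2, 3 and 4 gave 40.2, 39.4 and 84.2 CPM in GFP cells, against 81.9, 84.2 and 84.6 CPM in mCherry cells. Within tumour 4 the 2 colours were nearly equal (log2 fold change −0.71, SE 0.18, adjusted p = 0.0238). Bub1 reached 29.4, 33.6 and 41.3 CPM in GFP and 66.8, 60.5 and 106 CPM in mCherry cells of day 15 tumours 1, 2 and 3. All day 15 GFP cells lay below all mCherry cells (log2 fold change −1.14, SE 0.11, adjusted p = 0.000145). Mad2l1, which encodes the Mad2 inhibitor of Cdc20, was lower by −0.63 on day 7 and −0.69 on day 15 on the log2 scale.

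The chromosomal passenger complex corrects faulty attachments and moves to the central spindle at anaphase, and all 4 of its genes were lower on both days (medians −0.79 and −1.08). Birc5 encodes survivin and Cdca8 encodes borealin, which bring the Aurora B kinase to the centromere. In tumours 2, 3 and 4 of day 7, Birc5 was at 56.7, 59.7 and 105 CPM in GFP cells and at 148, 151 and 136 CPM in mCherry cells. The colours did not overlap (log2 fold change −1.03, SE 0.17, adjusted p = 0.00296). Birc5 stood at 13.2, 18.6 and 24.5 CPM in the GFP cells of tumours 1, 2 and 3 and at 41.2, 30.3 and 50.9 CPM in their mCherry cells on day 15. The day 15 difference was −1.14 on the log2 scale (SE 0.15, adjusted p = 0.000901). On day 7, GFP cells of tumours 2, 3 and 4 held 45.7, 46.8 and 62.9 CPM of Cdca8 and mCherry cells 87.1, 87.3 and 80.5 CPM. GFP cells were below mCherry cells in all 3 tumours (log2 fold change −0.73, SE 0.12, adjusted p = 0.0033). The day 15 levels of Cdca8 were 19.8, 23.1 and 27 CPM in GFP cells and 46.2, 40.9 and 57.8 CPM in mCherry cells of tumours 1, 2 and 3. The groups were again apart (log2 fold change −1.05, SE 0.10, adjusted p = 0.000168). Aurkb, the kinase itself, was lower by −0.83 on day 7 (adjusted p = 0.0183). For Aurkb on day 15, tumours 1, 2 and 3 gave 16.2, 19.9 and 25.6 CPM in GFP cells, against 36.4, 33.6 and 64.7 CPM in mCherry cells. On day 15 the fall was −1.10 on the log2 scale (SE 0.12, adjusted p = 0.000297). Incenp, the scaffold of the complex, was lower by −0.75 and −0.90.

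Cdc20, the activator of the anaphase-promoting complex that the checkpoint blocks, and Ube2c, its ubiquitin-conjugating enzyme, differed in their day 7 calls. Cdc20 reached 70.1, 102 and 142 CPM in GFP and 183, 147 and 133 CPM in mCherry cells of day 7 tumours 2, 3 and 4. Tumour 4 showed no fall, and the gene missed the threshold (log2 fold change −0.60, SE 0.21, adjusted p = 0.0771). In tumours 1, 2 and 3 of day 15, Cdc20 was at 36.8, 52 and 62.9 CPM in GFP cells and at 102, 91.7 and 116 CPM in mCherry cells. On day 15 it fell in all 3 tumours (log2 fold change −1.06, SE 0.12, adjusted p = 0.000372). Ube2c stood at 82.3, 97.4 and 190 CPM in the GFP cells of tumours 2, 3 and 4 and at 213, 273 and 247 CPM in their mCherry cells on day 7. GFP cells lay below all mCherry cells (log2 fold change −1.08, SE 0.18, adjusted p = 0.00315). On day 15, GFP cells of tumours 1, 2 and 3 held 41.5, 45.4 and 56.5 CPM of Ube2c and mCherry cells 62.5, 68.2 and 132 CPM. The mCherry cells of tumour 3 stood far above the other 2 (log2 fold change −0.81, SE 0.13, adjusted p = 0.00198). Cdc20 and Ube2c have exons that overlap Elovl1 and Tnnc2, Cdc20 shares sequence with Gm7856, and which strand setting was used for counting is not stated.

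Of 7 genes of the central spindle and cytokinesis, 5 were lower on day 7 (median −0.79) and 7 on day 15 (median −0.94). Kif20a and Kif23 encode motors of the central spindle, and Kif20b a motor of the midzone and abscission. The day 7 levels of Kif23 were 20.4, 25.1 and 49.4 CPM in GFP cells and 56.2, 55.2 and 63.1 CPM in mCherry cells of tumours 2, 3 and 4. The groups did not overlap (log2 fold change −0.97, SE 0.18, adjusted p = 0.00499). For Kif23 on day 15, tumours 1, 2 and 3 gave 34.3, 37.9 and 44.5 CPM in GFP cells, against 81.4, 62.9 and 95.1 CPM in mCherry cells. They were apart on day 15 as well (log2 fold change −1.03, SE 0.11, adjusted p = 0.000219). Kif20b reached 10.4, 10.8 and 35.5 CPM in GFP and 26.6, 31.3 and 45.9 CPM in mCherry cells of day 7 tumours 2, 3 and 4. GFP cells of tumour 4 lay among the mCherry cells (log2 fold change −1.06, SE 0.21, adjusted p = 0.0066), while the day 15 difference was −0.97 on the log2 scale (SE 0.13, adjusted p = 0.000687). In tumours 1, 2 and 3 of day 15, Kif20a was at 34.5, 49.5 and 61.2 CPM in GFP cells and at 112, 99.8 and 136 CPM in mCherry cells. This was the largest day 15 fall of the role (log2 fold change −1.29, SE 0.12, adjusted p = 0.000153), and on day 7 the value was −0.80 on the log2 scale (SE 0.16, adjusted p = 0.00841). Kif20a shares exon positions with Cdc23.

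The 2 cytokinesis genes that missed the threshold on day 7 were Ect2, the exchange factor that activates RhoA at the cell equator, and Anln, which encodes anillin, the scaffold of the contractile ring. Ect2 stood at 23, 26.9 and 49.2 CPM in the GFP cells of tumours 2, 3 and 4 and at 41.1, 39.7 and 43.6 CPM in their mCherry cells on day 7. Tumour 4 was higher in GFP cells (log2 fold change −0.40, SE 0.17, adjusted p = 0.137). On day 15, GFP cells of tumours 1, 2 and 3 held 32.8, 37.6 and 36.5 CPM of Ect2 and mCherry cells 48.2, 41 and 71.9 CPM. The day 15 fall was −0.57 on the log2 scale (SE 0.14, adjusted p = 0.0188), and the call was lost without tumour 3, without the block and in a joint fit of the 12 mixed tumour libraries. The day 7 levels of Anln were 136, 163 and 302 CPM in GFP cells and 216, 222 and 233 CPM in mCherry cells of tumours 2, 3 and 4. GFP cells of tumour 4 had the highest value (log2 fold change −0.25, SE 0.16, adjusted p = 0.337). For Anln on day 15, tumours 1, 2 and 3 gave 223, 199 and 224 CPM in GFP cells, against 282, 257 and 346 CPM in mCherry cells. Anln had the smallest day 15 change of all 44 genes (log2 fold change −0.45, SE 0.09, adjusted p = 0.006). Without tumour 3 and in the joint fit it was no longer called. Prc1, the bundler of central spindle microtubules, and its partner motor Kif4 were lower by −0.79 and −0.57 on day 7 and by −0.78 and −0.94 on day 15.

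**Figure D2:**
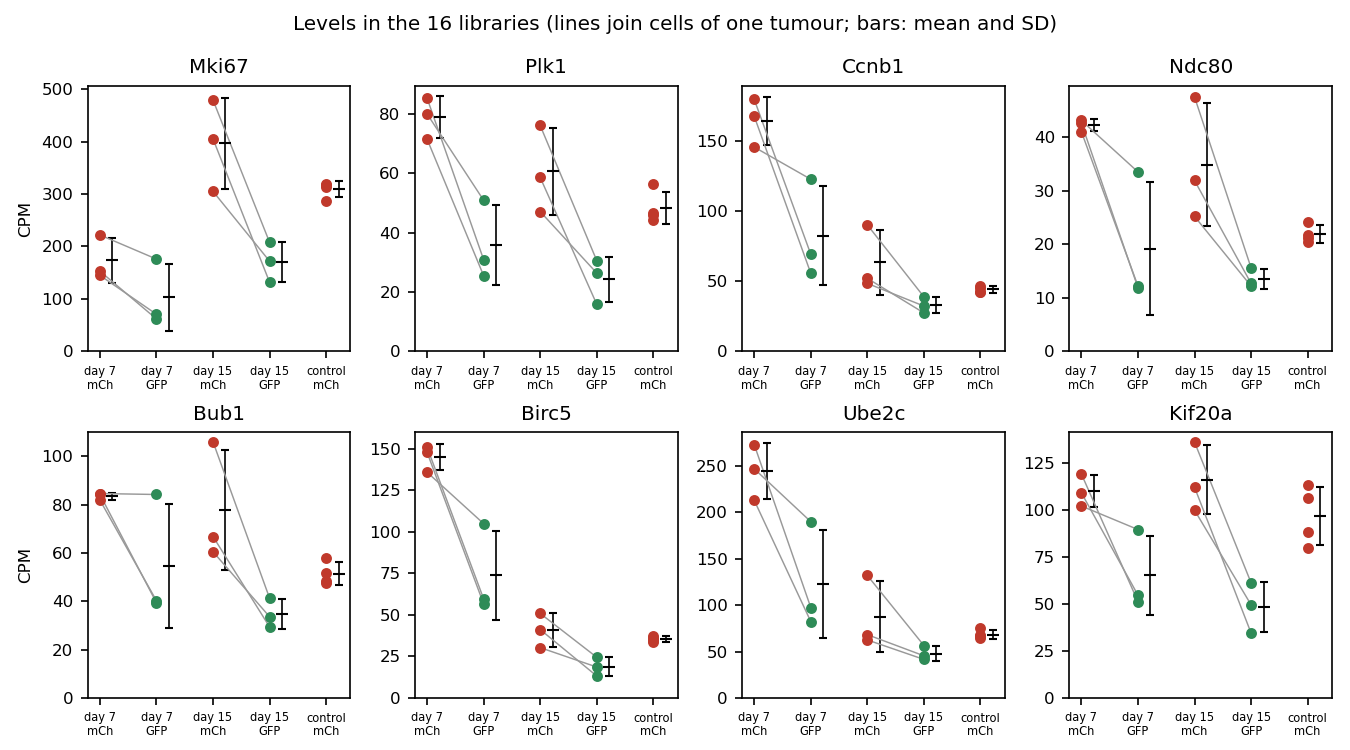
CPM (vertical axis, from 0) of 8 members in each library of the 5 groups, with lines joining the GFP and mCherry cells of a tumour and bars for the mean and SD over 3 tumours (4 for controls). Of the day 7 GFP points, that of tumour 4 is the highest in every panel, and the day 15 GFP points lie below the day 15 mCherry points.

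The size of the fall differed between tumours, and day 7 tumour 4 and day 15 tumour 2 stood apart from the other 2 of their day. The median difference of the 44 genes was −1.26, −1.07 and −0.21 log2 units in day 7 tumours 2, 3 and 4, and −1.17, −0.70 and −1.14 in day 15 tumours 1, 2 and 3. Over all 13012 genes measured in every tumour the medians lay between −0.02 and 0.05. Tumour 4 had the smallest difference of the 3 day 7 tumours in all 44 genes, and 10 of the 44 were higher in its GFP cells. Its GFP library was the highest day 7 GFP library in 44 of 44 genes. Its mCherry cells had a summed member level of 4440 CPM, beside 4260 and 4430 CPM in the other 2. Genes that were called on day 15, members left out, differed less in tumour 4 too, but by a smaller margin. The 1414 lower ones had medians of −0.57, −0.53 and −0.31 in tumours 2, 3 and 4, and the 1230 higher ones 0.63, 0.60 and 0.49. On day 15, tumour 2 had the smallest difference in 42 of the 44 genes. Its mCherry library was the lowest mCherry library of that day in 41 genes, and its GFP library lay between the other 2 by the sum.

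Across the 6 steps with at least 4 members, the medians within a tumour spanned 0.21 to 0.32 log2 units. For a given step, the medians spanned 0.85 to 1.10 units over the day 7 tumours and 0.41 to 0.57 over the day 15 tumours. The spans of each day rest on 1 tumour. Without tumour 4 the day 7 spans were 0.02 (entry) to 0.26 (kinetochore), and without tumour 2 the day 15 spans were 0.01 (spindle) to 0.22 (kinetochore), no wider than the widest span over steps within a tumour. Spindle genes had the deepest median in 3 of the 6 tumours (−1.21 in day 7 tumour 3, −1.28 and −1.27 in day 15 tumours 1 and 3). In day 15 tumour 1 the kinetochore median was also −1.28. Kinetochore genes were deepest in day 7 tumour 2 (−1.32), passenger genes in tumour 4 (−0.28) and checkpoint genes in day 15 tumour 2 (−0.74, where spindle genes were also at −0.74). Cytokinesis genes had the shallowest median in 3 tumours, among them both day 15 tumours 1 and 2 (−1.05 and −0.53). In tumour 4 the checkpoint genes were shallowest, at −0.04. No step was deepest in every tumour, and no test was made between steps.

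**Figure D3:**
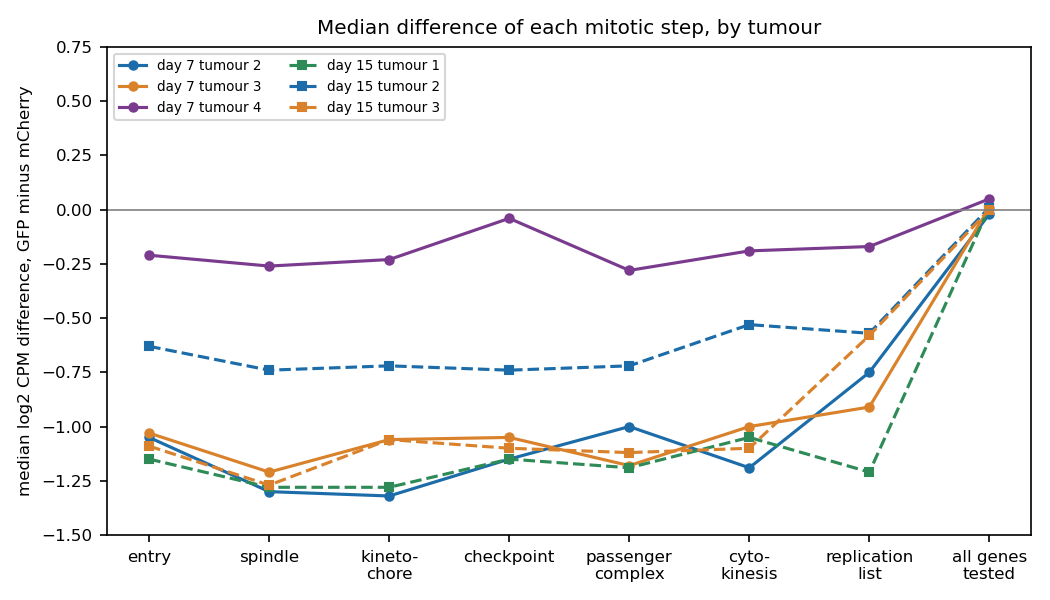
Median log2 CPM difference of GFP minus mCherry cells (vertical axis) for each mitotic step, the replication list and all genes tested, with 1 line per tumour. Across the 6 mitotic steps the line of day 7 tumour 4 lies highest and that of day 15 tumour 2 next, and the lines of the other 4 tumours cross.

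The day 15 libraries were set against the mCherry cells of control tumours to see on which side the difference lay. These comparisons share the controls, and their GFP and mCherry libraries also serve in the day 15 comparison. Among GFP cells, 33 of the 44 genes were lower than in controls, and none was higher, where 6.97% of 14801 genes were lower and 6.09% higher. The median log2 fold change was −0.61, from −1.11 for Ccnb2 to −0.10 for Anln. Every GFP library lay below every control in 35 of the 44, beside 15.7% of all genes. All 8 spindle genes and all 4 passenger genes were called, and 3 of 7 cytokinesis genes. Kif20a stood at 79.5, 88, 106 and 113 CPM in controls, above all day 15 GFP values (log2 fold change −0.99, SE 0.19, adjusted p = 0.0181). Plk1 stood at 44.4, 46, 56.4 and 46.5 CPM in controls (log2 fold change −0.98, SE 0.19, adjusted p = 0.0188). The 11 genes not called were Mad2l1, Kif20b, Prc1, Anln, Ect2, Melk, Pbk, Cdk1, Spc25, Nuf2 and Top2a, with log2 fold changes from −0.59 to −0.10. The number called was 11 without GFP library 1, 10 without GFP library 2, 21 without control 3 and 22 when all 10 run 2 libraries were fitted jointly. Over all genes, calls in either direction fell to 287, 520 and 807 in the leave-one-out fits but rose to 2570 in the joint fit, beside 1933. Macrophage markers summed to 45.6 to 136 CPM in the controls, above either colour of day 15, with 10 of 11 lower in GFP cells than in controls. Their part in this comparison was not tested.

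In day 15 mCherry cells, which the T cells do not recognise, all 44 genes had a log2 fold change above 0 against the controls, and none passed the threshold. Their median was 0.40, from 0.03 for Ccnb2 to 0.73 for Kif20b and Spc25. No gene of 14800 was called by edgeR (0%), although 2104 genes, 28 members among them, had an unadjusted p under 0.05. DESeq2 called 262 genes, among them 8 members, Top2a, Bub1, Kif11, Kif20b, Kif15, Ndc80, Spc25 and Incenp, each higher. For Kif20b the value was 0.73 on the log2 scale (SE 0.18, adjusted p = 0.251), with 41.5, 33.9 and 57.6 CPM in mCherry cells of tumours 1, 2 and 3 and 30.5, 23.5, 24.1 and 29.8 CPM in controls. All 3 mCherry libraries lay above all 4 controls in 13 of the 44 genes, beside 7.16% of all genes. The tumours contributed unequally. The mCherry library of tumour 3 was above every control in 43 genes, that of tumour 1 in 34 and that of tumour 2 in 13. Without tumour 3 the median was 0.20, and Ube2c, Cdc20, Cenpa and Cdca3 had values below 0.

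**Figure D4:**
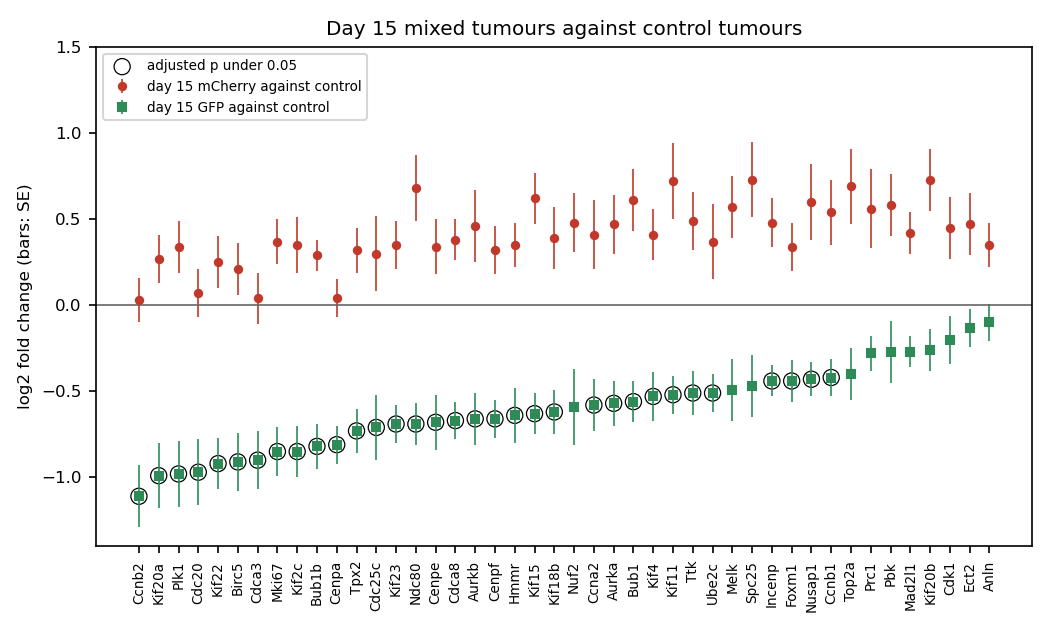
Log2 fold change with its SE (vertical axis) of each of the 44 genes in day 15 mCherry cells and day 15 GFP cells, each against mCherry cells of 4 control tumours. All mCherry points lie above 0 and all GFP points below, and the 33 ringed GFP points passed an adjusted p of 0.05.

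The change in the GFP effect between injection days was tested in the 12 mixed tumour libraries. None of the 44 genes passed in edgeR or in DESeq2, where, in edgeR, 0.211% of 16626 genes did (35 genes), and only Foxm1 among the members had an unadjusted p under 0.05. The median difference, day 15 minus day 7, was −0.18 with a median SE of 0.25. The lowest value was that of Foxm1 (difference −0.57, SE 0.19, adjusted p = 0.317) and the highest that of Nusap1 (difference 0.49, SE 0.29, adjusted p = 0.593). Without day 7 tumour 4 the median was 0.13, and 26 of the 44 genes changed sign. With SE of this size, the threshold missed does not show that the 2 days were alike.

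Genes that work with the 44 were followed by list. Of 58 other mitosis genes tested, 30 were lower on day 7 (median −0.58) and 46 on day 15 (median −0.77), and none was higher. The 3 of smallest day 15 p were Zwilch, a kinetochore protein of the checkpoint (−0.77 on day 7 and −1.06 on day 15), Racgap1, the partner of Kif23 (−0.64 and −0.87), and Arhgap11a (−0.47 and −0.82, the former not called at adjusted p = 0.0559). Condensin compacts mitotic chromosomes, and cohesin holds sister chromatids together and also acts outside mitosis. Of 8 condensin genes, 6 were lower on day 7 and 8 on day 15, with medians of −0.67 and −0.81. Of 8 genes of cohesin and its regulators, 2 were lower on each day, with medians of −0.16 and −0.13. The split of this list was made after its values were seen. Smc2, Ncapg and Ncaph had values of −0.84, −0.84 and −0.79 on day 7 and −0.92, −1.02 and −1.01 on day 15. The subunits of the anaphase-promoting complex are present throughout the cycle. Of 15 genes, these subunits and the ubiquitin-conjugating enzyme Ube2s, 4 were lower on day 7, where 9.33% of all genes were. Their values ran from −0.56 to −0.42 (Ube2s, Anapc11, Anapc13 and Cdc26), and 1 gene (Cdc16, 0.39) was higher. On day 15, where 10.6% of all genes were lower, 2 (Ube2s and Anapc11, both −0.29) were. Of 39 DNA replication genes, 25 were lower on day 7 (median −0.58) and 35 on day 15 (median −0.83), with Mcm10 at −1.06 and −1.26, Mcm4 at −0.76 and −1.01 and Cdc45 at −0.92 and −0.98.

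Regulators of the DREAM, MuvB, E2F and NF-Y groups were called lower on day 15 only in part. The list was not limited to MuvB and NF-Y, described above as binding the CHR and the CCAAT box. Foxm1 was counted among the mitosis genes and is not in this list. Of 22 genes of DREAM, MuvB, E2F and NF-Y, none was called lower by edgeR on day 7 and 7 were on day 15 (9.33% and 10.6% of all genes). On each day 1 was higher (8.89% and 8.94% of all genes). At an unadjusted p under 0.05 in edgeR's test, 2 were lower and 3 higher on day 7. Mybl2, which encodes B-Myb, stood at 24.0 ± 9.16 CPM (SD, n = 3) in day 7 GFP cells and 31.4 ± 4.79 CPM in mCherry cells (log2 fold change −0.44, adjusted p = 0.0922). On day 15 it stood at 15.5 ± 4.13 and 31.6 ± 3.08 CPM (−1.06, adjusted p = 0.000411). The MuvB genes Lin9 and Lin54 had values of −0.12 and −0.12 on day 7, neither called, and fell by 0.42 and 0.55 on day 15. The MuvB genes Lin37, Lin52 and Rbbp4 had day 15 values of 0.07, 0.09 and −0.04, none called. Those of the NF-Y genes Nfya, Nfyb and Nfyc were 0.07, 0.25 and −0.09, none called either. Of the pocket proteins, Rbl2 (p130) was 0.38 on day 7, not called, and rose by 0.55 on day 15 (adjusted p = 0.00557). Rbl1 (p107) was −0.23 on day 7, not called, and −0.42 on day 15 (adjusted p = 0.0473), and Rb1 was −0.01 and 0.21, neither called. E2f4, the E2F that pairs with p130, was higher on day 7 (65.6 ± 4.96 against 38.2 ± 2.64 CPM, 0.78, adjusted p = 0.0013) and 0.27 on day 15 (adjusted p = 0.0545). E2f1 was 0.01 and −0.25, called on neither day.

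Levels of the 44 genes were set against each other per kilobase of summed exon length (GENCODE M21). In control mCherry cells the highest were Ccnb2 (57.6 CPM per kb), Cdc20 (53.2), Top2a (33.8) and Mki67 (30.7), and the lowest Kif15 (3.18) and Ndc80 (3.37). In day 7 mCherry cells the order was led by Ccnb2 (118), Ube2c (93.8), Cdc20 (82.4) and Pbk (71.5), with Mki67 at 17.2. The log2 ratio of mean CPM, controls over day 7 mCherry, ran from −2.24 for Spc25 to 0.84 for Mki67, and 7 of 44 genes were higher in controls. Across the 44 genes this ratio had a Spearman correlation of 0.61 with exon length, as a description over genes that share these libraries. Injection day, T cell injection and run all differ between these groups and cannot be told apart. The GFP effects within a tumour, which compare libraries of the same run, had correlations of 0.05 (day 7) and 0.13 (day 15) with exon length.

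**Figure D5:**
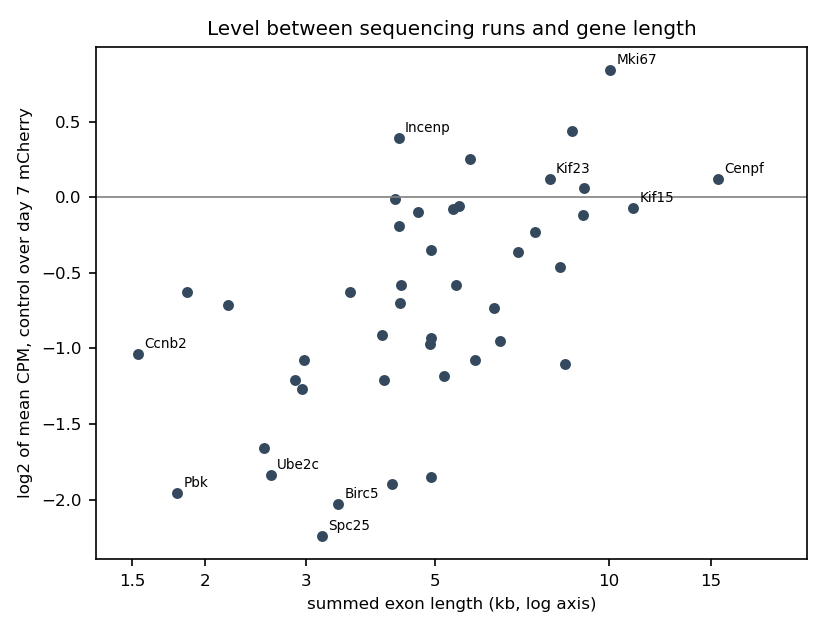
Log2 ratio of mean CPM in control mCherry cells over day 7 mCherry cells (vertical axis) against summed exon length in kb (log axis) for the 44 genes, 1 point per gene. Spc25 and Birc5 lie lowest and Mki67 highest, at 0.84, while the shortest gene, Ccnb2, lies at −1.04.

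On day 7 the authors' deposited table called 36 of the 44 genes lower at an adjusted p under 0.05, with a median of −0.80, and did not call Ccnb2, Cdc20, Cenpe, Hmmr, Foxm1, Ccna2, Ect2 and Anln. On day 15 the authors' deposited table called all 44 lower, with a median of −1.02.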

How the data were processed

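The 16 libraries came from sorted cells, 3 per reporter and injection day and 4 of control tumours. Digestion took 20 minutes at 37 °C, and cells were sorted after a CD45 and DAPI stain, per the labels' protocols. RNA extraction used a column kit or a low-input protocol of the sequencing company. Which sample had which, and how CD45 was gated, is not stated in the sources used here. The deposited values are raw counts per gene from that company, per the labels' protocols. The genome was mm10, per the submitters' processing notes. For the aligner, counter, strand setting and gene models, nothing is stated in the sources used here. The authors' deposited DESeq2 tables hold log2 fold changes, a Wald score, a p-value, its adjusted p-value and a mean signal, per the file headers.

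Each of the 2 count tables held 49315 genes. The 176 without a symbol, at most 0.0110% of a library's counts, were left out. Genes were filtered with filterByExpr (minimum count 10, minimum total 15) and scaled by TMM. Tests were quasi-likelihood F-tests of edgeR 4.0.16 in R 4.3.3, with Benjamini-Hochberg adjustment over all genes tested. CPM are TMM-scaled over the 16 libraries. SE was computed as the log2 fold change divided by the root of F. Differences within a tumour are of log2 CPM (prior count 2). Chi-square per degree of freedom between replicates was 5.34 to 92.1, so no library was a duplicate. The tests share information on variance across genes. An SE or p-value is therefore not the spread of that gene alone between these tumours. For Bub1 on day 7 the tumour differences were −1.03, −1.09 and −0.01, beside an SE of 0.18. The fits were checked on simulated counts.

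GFP and mCherry cells were paired by tumour, with 2 residual degrees of freedom, by the labels on day 15 and by shared column numbers on day 7. Since day 7 columns run from 2 to 4 but labels from 1 to 3, these and the 4 controls were matched as groups only. Deviations from group means correlated at 0.110 to 0.158 within day 7 pairs (other pairs −0.126 to 0.00693). Within day 15 pairs this was 0.0909 to 0.232 (other pairs −0.183 to 0.0183). Alternatives were DESeq2 1.42.0, DESeq2 size factors, no filter, a minimum count of 50, no block, joint fits, and each tumour or library left out.

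The members and lists were chosen with earlier results of these data known. Libraries are given for the 2 members of smallest p per role and day, Mki67, Cdk1, Ccnb1 and members that missed the threshold. Of each pathway list the 3 genes of smallest day 15 p are named, with Mybl2, Lin9, E2f1, E2f4 and the pocket proteins. Others were chosen after their values were seen. Exon positions came from GENCODE M21 (GRCm38), in which exons of 13 members overlap those of another gene and 5 members share 50-base sequences with one. Promoters are from RefSeq (GRCm38.p6). Those of Aurkb, Kif20a, Tpx2, Foxm1, Ccna2, Incenp, Cdc25c and Pbk were not used here.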

Additional observations from a re-analysis of the deposited data

Results flagged for a closer look

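Among the 4 control tumours, 1 library lay far from the other 3 in 5 of the 44 genes, by the gap to its nearest neighbour as a share of the group's range. Chance flags about 1 in 20 groups. In 4 of the 5 genes it was control 4, and it was the highest. Ttk stood at 34.7 CPM there and at 26.6 to 27.4 CPM in the others (share 0.901), Nuf2 at 41.2 against 28.4 to 30.3 CPM (0.852), Hmmr at 49.7 against 37.9 to 39.8 CPM (0.842) and Melk at 22.2 against 17.7 to 18.5 CPM (0.831). Mki67 was low in control 1, at 286 CPM against 313 to 319 CPM (0.831). Without control 4, 27 of the 44 genes were called lower in day 15 GFP cells, and without control 1, 28. Calls over all genes in either direction were 2093 and 1646 in these fits, beside 1933 with all controls.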

How the results depend on the processing

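The tumour pairing bears on the day 7 count. Without the replicate block, 20 of the 44 genes were called lower on day 7 (38 with it) and 40 on day 15 (44 with it), and Cdk1, Ube2c, Prc1 and Ect2 lost their day 15 calls. Leaving out 1 tumour gave 16 to 44 calls on day 7, the lowest without tumour 3 and the highest without tumour 4, and 42 to 44 on day 15. Over all genes, day 7 calls in either direction were 1156 without tumour 3 and 4558 without tumour 4, beside 2656 with all tumours. The other alternatives gave 35 to 42 on day 7 (DESeq2 to no filter) and 42 to 44 on day 15, where the joint fit lost Ect2 and Anln. In day 15 GFP cells against controls, leaving out 1 library gave 10 to 37 calls (11 without GFP library 1, 10 without GFP library 2, 21 without control 3), beside 33. The joint fit gave 22 and the others 33 to 35. Over all genes, calls were 287 without GFP library 1, 520 without GFP library 2 and 807 without control 3. They were 2570 in the joint fit, beside 1933 with all libraries. For day 15 mCherry cells against controls, DESeq2 called 8 of the 44 genes (262 of all genes tested) and every edgeR setting 0 of the 44. No paired analysis was possible for the comparisons with controls because they come from other tumours. The difference between days gave 0 calls in every setting, 0 without the replicate block too, and its median ran from −0.37 to 0.13.

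Some named genes near 0 changed sign. With 1 tumour left out, day 7 values ran from −0.40 to 0.01 for Foxm1, −0.28 to 0.12 for Lin54 and −0.29 to 0.01 for Lin9, each highest without tumour 3. E2f1 ran from −0.11 to 0.18 (−0.01 without tumour 2, and −0.00 without the block) and Rb1 reached 0.10 without tumour 4. In day 15 mCherry cells against controls, Ccnb2 was −0.08 without tumour 1 and −0.08 without control 1. Cdca3 ran from −0.08 without tumour 3 to 0.16 without tumour 2 (−0.06 without control 1). The cause was not tested. Each of the 44 members had at least 104 counts in every library.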

Other observations

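In the authors' deposited day 15 table, 1 row has a mean count of 22515851, the size of a whole library's total, whereas the largest mean in the authors' deposited day 7 table is 378386. All 44 mitosis genes were called lower on day 15 both in the authors' deposited table and in edgeR's test of the counts.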
